A study of Mus musculus with 9 samples.

Results

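The genes described here encode the constitutive proteasome, its assembly chaperones and its activators. They were chosen by symbol: every gene of the array's annotation named Psma, Psmb, Psmc, Psmd, Psme, Psmf or Psmg with a number, apart from the inducible immunoproteasome subunits Psmb8, Psmb9 and Psmb10 and from pseudogenes. This gave 45 genes of the 19938 measured by a probe set with a single gene symbol, and where a gene had several such probe sets the brightest was used. The rule used no measured difference between groups, but the members were chosen with earlier results of these data known.

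The cells were D2.OR, a mouse mammary tumor cell line, grown in 3D culture and measured on 9 arrays. By their titles, 3 arrays came from cells in fibrillar collagen I, 3 from cells in non-fibrillar collagen I and 3 from cells in Matrigel, a basement membrane extract. The growth label of the Matrigel arrays says non-fibrillar collagen I, and the design text of the series lists the collagen conditions alone, so "Matrigel" rests on the titles. No genotype, drug or time was given in the labels, all groups share the same line, and nothing says whether the 3 arrays of a group came from separate cultures. P-values therefore measure the spread between these arrays, which may be technical. The Matrigel arrays carry a different description field from the collagen arrays, so a batch that goes with it and the matrix cannot be told apart.

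The proteasome is the cell's main protease for proteins tagged with ubiquitin. A barrel of stacked alpha and beta rings (the 20S core) holds the proteolytic sites on its beta subunits, and a 19S cap recognises the ubiquitin tag, removes it, unfolds the substrate with a ring of ATPases and feeds it into the core. Dedicated chaperones build the rings, and other caps (the PA28 family and PA200) can replace the 19S cap. On these arrays 41 of the 45 genes had a mean log2 level of 8 or more, against a median of 6.44 over all genes. The genes share transcription factors, among them NFE2L1, which binds antioxidant response elements, and factors that bind CCAAT boxes and ETS motifs.

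Most members were highest in non-fibrillar collagen. The mean of the non-fibrillar arrays was the highest of the 3 group means for 41 of the 45 genes. The mean was highest in fibrillar collagen for Psma8, Psmb11 and Psme4, and in Matrigel for Psmd11. All 3 non-fibrillar arrays lay above the other 6 arrays for 27 genes (60% of the members), against 8.73% of all genes and 19.8% of the 6294 genes with a mean log2 level of 8 or more. The differences were small, at most 1.31-fold between any groups where a gene passed the test.

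Promoter sequences are shown for the members called lower in the fibrillar than the non-fibrillar form (below) that hold a searched motif wholly within the 100 bases before the start. RefSeq promoter windows of the GRCm38.p6 build, from 250 bases before to 50 after a gene's start, matched 37 of the 45 members. Each line gives those 100 bases, 5′ to 3′ on the gene's strand, with the motif in capitals: the CCAAT box in Psma2 and Psmb3, the same box read on the opposite strand (ATTGG) in Psmd10, the antioxidant response element core in Psmb6 and the ETS core in Psmd6.
Psma2 (chr13:14613142-14613241, + strand): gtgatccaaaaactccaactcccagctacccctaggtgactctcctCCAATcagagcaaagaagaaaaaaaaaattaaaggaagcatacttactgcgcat
Psmb3 (chr11:97703334-97703433, + strand): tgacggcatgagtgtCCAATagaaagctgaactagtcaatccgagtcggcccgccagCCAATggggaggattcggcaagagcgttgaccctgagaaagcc
Psmb6 (chr11:70525257-70525356, + strand): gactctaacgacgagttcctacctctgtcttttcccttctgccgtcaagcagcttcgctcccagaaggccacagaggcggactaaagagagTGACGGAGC
Psmd10 (chrX:140956712-140956811, - strand): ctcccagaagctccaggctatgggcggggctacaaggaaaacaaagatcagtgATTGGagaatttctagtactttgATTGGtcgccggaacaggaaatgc
Psmd6 (chr14:14120946-14121045, - strand): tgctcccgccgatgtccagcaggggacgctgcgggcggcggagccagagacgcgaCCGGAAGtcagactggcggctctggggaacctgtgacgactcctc

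The motifs were searched on both strands of each whole window. The ETS core CCGGAAG occurred in 15 of the members' 40 windows (37.5%), against 8.86% of 32851 promoter windows of all genes. The CCAAT box was in 13 windows (32.5%), against 37.4% of all windows. The antioxidant response element core TGACNNNGC was in 6 windows (15%), against 12.4%. Among the 13 genes called lower in fibrillar collagen, 5 had a CCAAT box in the window, 1 the ETS core and 1 the antioxidant core. Psma7 and Psmd14, also called lower, had their CCAAT boxes outside the stretch shown. The box of Psma7 began 196 bases before the start, and 2 of those of Psmd14 lay just after it. A match is a run of letters and not a measured binding site.

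**Figure D1:**
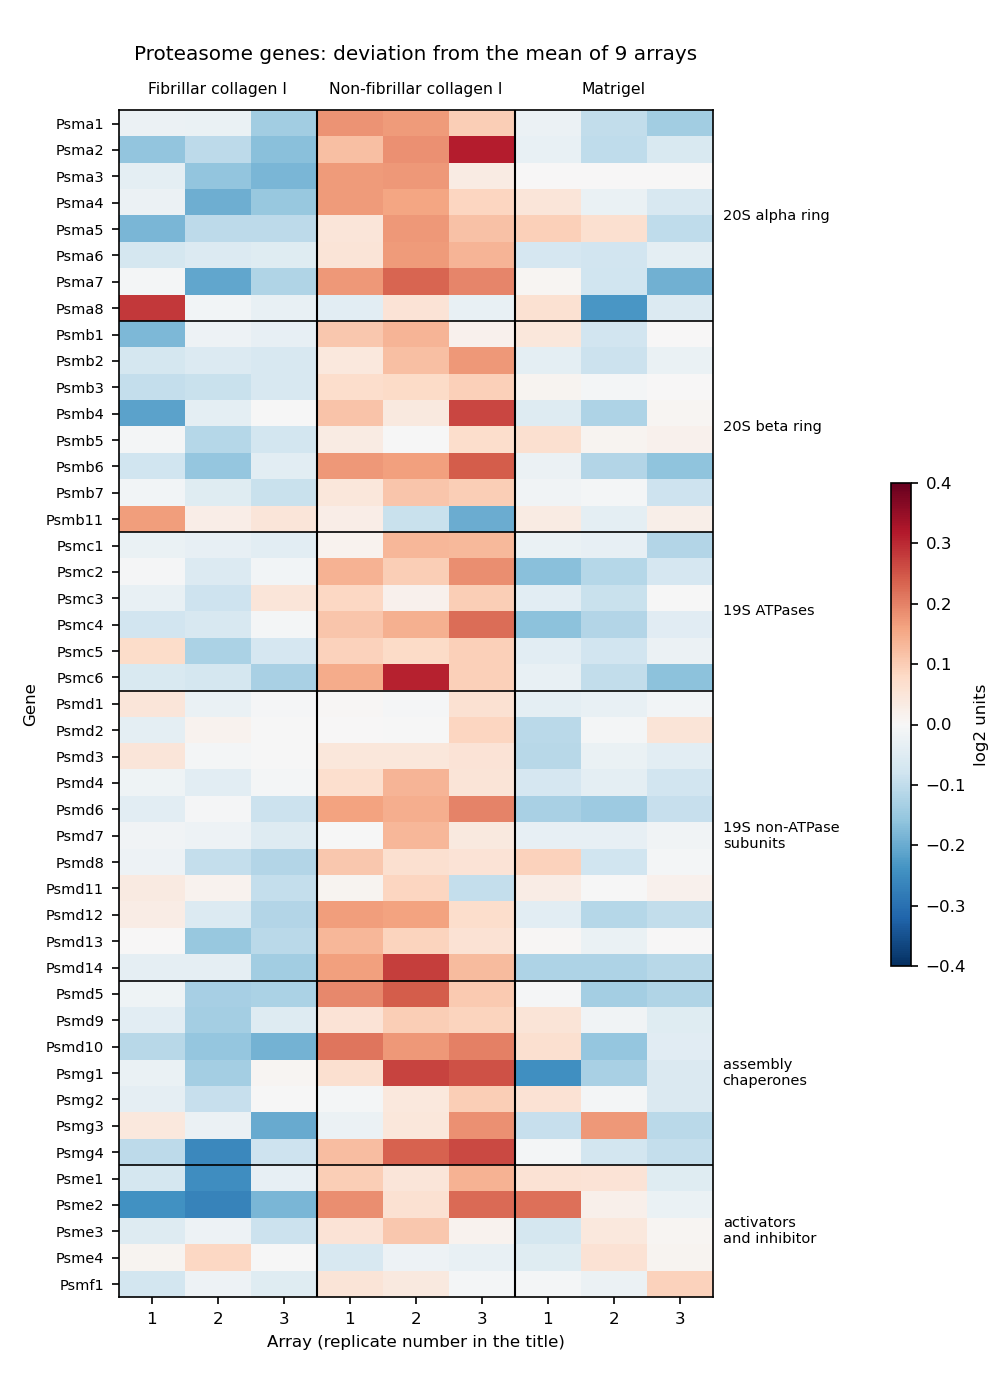
Log2 expression of each of the 45 genes (rows, grouped by role) on each of the 9 arrays (columns), as the deviation from that gene's mean over the 9 arrays; red is above and blue below the mean. The 3 non-fibrillar columns are red for most rows: 40 of the 45 genes lay above their own mean on each of these arrays, against 3 to 10 on the fibrillar and 7 to 16 on the Matrigel arrays.

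The array-by-array view showed the same order. The median deviation of the 45 genes from their own means was 0.08, 0.11 and 0.10 log2 units on the non-fibrillar arrays 1, 2 and 3. It was -0.03, -0.06 and -0.06 on the fibrillar arrays, and -0.02, -0.04 and -0.05 on the Matrigel arrays. The non-fibrillar arrays did not overlap the others, while the fibrillar and Matrigel arrays overlapped each other. Over all 19938 genes this median lay between -0.01 and 0.00 on every array. Since these are relative levels in total RNA, fewer expressing cells and less RNA per cell cannot be told apart.

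The comparison of the collagen forms asks how the fibrillar state of collagen I relates to gene expression in these cells. In fibrillar collagen, 13 of the 45 genes were lower than in non-fibrillar collagen and 0 were higher (limma, adjusted p under 0.05 over all genes), which is 28.9% of the members against 3.69% of all genes called lower and 2.71% called higher. The decreases ran from 1.12-fold for Psmb3 to 1.31-fold for Psme2, and a further 10 genes had an adjusted p from 0.05 to under 0.1. The median difference, fibrillar minus non-fibrillar, was -0.17 log2 units, against 0.01 over all genes. For 42 genes the difference was below 0, and for 35 genes (77.8%) every fibrillar array lay below every non-fibrillar array, against 13.6% of all genes. At an unadjusted p under 0.05, 31 members were lower and 1, Psmb11, was higher (71.1% of the members), against 21.6% of all genes in either direction.

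Bright genes as a class leaned the same way, by less. Of the members, 41 had a mean log2 level of 8 or more. Among all genes at that level the median difference was -0.03 and 8.71% were called lower and 7.04% higher, against a median of -0.18 and 13 calls among these 41 members. The part of signal level in the result was not tested.

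**Figure D2:**
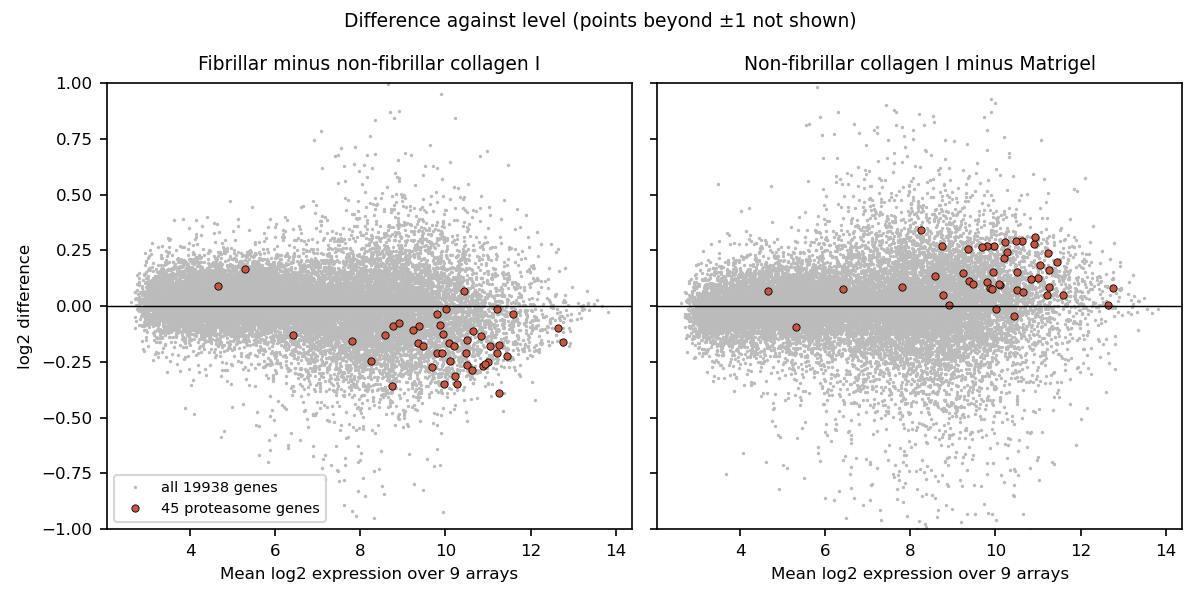
Difference in log2 expression (vertical axis) against mean log2 expression over 9 arrays (horizontal axis) for all 19938 genes (grey) and the 45 proteasome genes (red), with points beyond ±1 not shown. On the left, fibrillar minus non-fibrillar collagen, 42 of the 45 lie below 0; on the right, non-fibrillar collagen minus Matrigel, 42 lie above 0.

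The gene with the smallest adjusted p in this comparison was Psmd10 (gankyrin), a chaperone that helps assemble the base of the 19S cap. Its log2 level was 10.16, 10.12 and 10.08 in fibrillar collagen, 10.49, 10.45 and 10.48 in non-fibrillar collagen, and 10.34, 10.12 and 10.23 in Matrigel. The fibrillar and non-fibrillar arrays were well apart, and the Matrigel arrays overlapped the fibrillar ones. The fall was 0.35 ± 0.037 (SE, n = 3 arrays per group), or 1.27-fold, with a limma adjusted p of 0.0079. Psmd10 was also the single member that passed in all 6 refits that each left out 1 array.

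Calls in this comparison depended on every array. Leaving out 1 array left 3 genes called without fibrillar array 1, 1 gene without fibrillar array 2 or 3, and 2 genes without any of the non-fibrillar arrays. Psma5, Psmb3, Psmb6, Psmc4, Psmd6, Psmd14, Psmd5 and Psmg4 lost their call in each of these refits. With the replicate number as a block the count was again 13, but Psma7 (adjusted p 0.0529), Psmb3 (0.0656) and Psmd6 (0.0607) missed the threshold, while Psma1, Psma3 and Psmc6 passed it. After another quantile normalization 7 of the 13 passed; Psma4, Psma5, Psmb3, Psmc4, Psmd6 and Psmd14 did not. No member changed direction among those called.

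**Figure D3:**
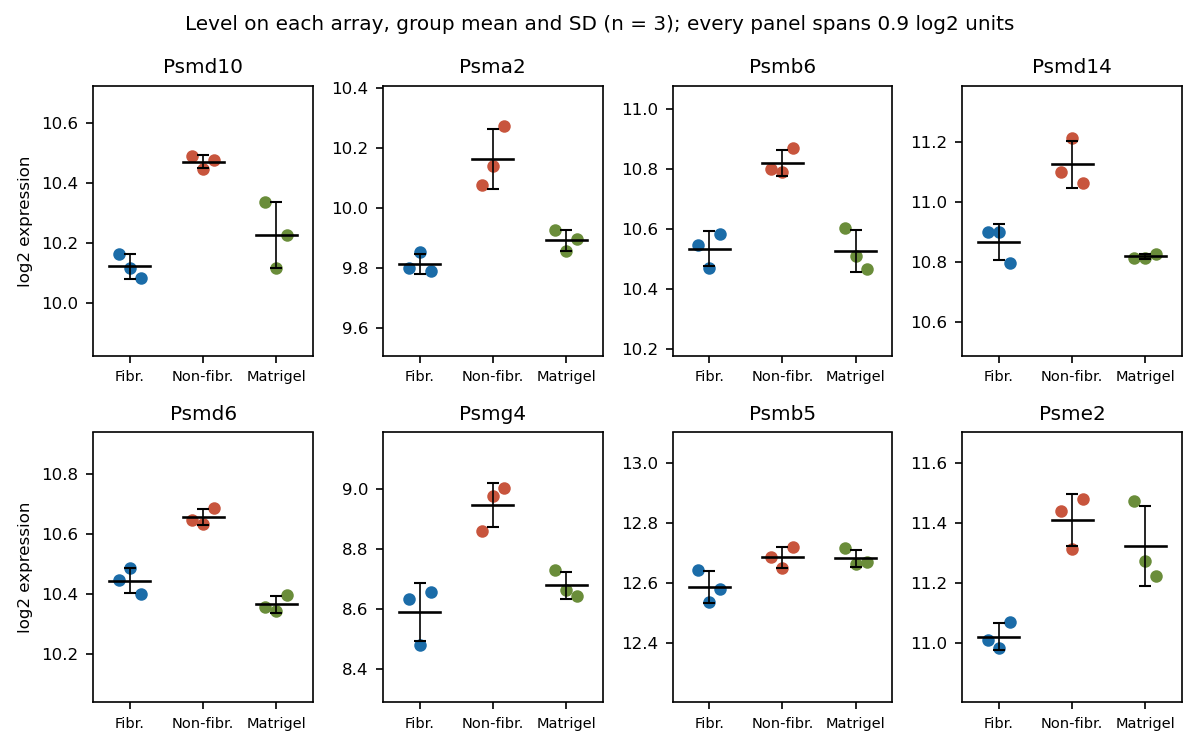
Log2 expression of 8 genes on each array (points), with the group mean (horizontal line) and SD (bars, n = 3) for fibrillar collagen, non-fibrillar collagen and Matrigel; every panel spans the same 0.9 log2 units. In Psmd10, Psma2, Psmb6, Psmd14, Psmd6 and Psmg4 the non-fibrillar arrays stand above both other groups, in Psmb5 they overlap the Matrigel arrays, and in Psme2 the fibrillar arrays stand below both other groups.

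The alpha ring forms the gate of the core and docks the caps. Of its 8 genes, 4 were lower in the fibrillar than the non-fibrillar form (Psma2, Psma4, Psma5 and Psma7), with a median of -0.25 log2 units over the 8. Psma2 measured 9.80, 9.85 and 9.79 in fibrillar, 10.08, 10.14 and 10.27 in non-fibrillar collagen and 9.93, 9.86 and 9.90 in Matrigel. The 3 groups did not overlap, with fibrillar lowest and non-fibrillar highest. Psma2 fell by 0.35 ± 0.056 between the collagens (1.27-fold, adjusted p 0.0221).

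Psma7 measured 10.23, 10.03 and 10.11 in fibrillar and 10.41, 10.47 and 10.43 in non-fibrillar collagen, and 10.24, 10.16 and 10.04 in Matrigel. The non-fibrillar arrays were the highest of the 9, and fibrillar and Matrigel arrays overlapped. The difference between the collagens was -0.31 ± 0.056 (1.24-fold, adjusted p 0.0294). For Psma4 it was -0.26 ± 0.055 (adjusted p 0.0428), and for Psma5 it was -0.24 ± 0.046 (adjusted p 0.0329). Psma1, Psma3 and Psma6 had differences of -0.21, -0.25 and -0.18 and adjusted p of 0.0507, 0.0581 and 0.0575, with no overlap between the arrays of the collagens. Psma8, an alpha subunit of the testis, was the dimmest member (mean log2 level 4.65, below the 25th percentile of all genes at 4.87), and its difference of 0.09 did not pass.

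The beta ring carries the proteolytic sites. Of its 8 genes, 2 were lower in the fibrillar than the non-fibrillar form (Psmb3 and Psmb6), with a median of -0.16. Psmb6, the subunit with caspase-like activity, measured 10.55, 10.47 and 10.58 in fibrillar, 10.80, 10.79 and 10.87 in non-fibrillar collagen and 10.60, 10.51 and 10.46 in Matrigel. Its non-fibrillar arrays lay above the other 6, which overlapped. The difference between the collagens was -0.29 ± 0.045 (1.22-fold, adjusted p 0.0202).

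The other catalytic subunits of the constitutive core did not pass. Psmb5, with chymotrypsin-like activity, measured 12.65, 12.54 and 12.58 in fibrillar, 12.69, 12.65 and 12.72 in non-fibrillar collagen and 12.72, 12.66 and 12.67 in Matrigel. The fibrillar arrays were the lowest, with fibrillar array 1 and non-fibrillar array 2 level to 2 decimals, and the difference of -0.10 ± 0.042 did not pass (adjusted p 0.242). Psmb7, with trypsin-like activity, had a difference of -0.13 ± 0.039 (adjusted p 0.101). Psmb3, a structural subunit, was 12.67, 12.68 and 12.70 in fibrillar and 12.83, 12.84 and 12.86 in non-fibrillar collagen, with 12.78, 12.76 and 12.77 in Matrigel. The 3 groups of Psmb3 did not overlap, and its difference between the collagens was the smallest that passed, at -0.16 ± 0.032 (adjusted p 0.0375). Psmb11, the catalytic subunit of the thymus, was dim and overlapped between the groups.

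In the 19S cap the ATPase ring unfolds substrates, and 1 of its 6 genes passed in this comparison, with a median of -0.15 and all 6 differences below 0. Psmc4, which Psmd10 binds during assembly, measured 9.72, 9.73 and 9.79 in fibrillar, 9.90, 9.94 and 10.02 in non-fibrillar collagen and 9.63, 9.68 and 9.75 in Matrigel. The non-fibrillar arrays were above the other 6, and the difference between the collagens was -0.21 ± 0.044 (1.16-fold, adjusted p 0.0441). Psmc6 had a difference of -0.27 ± 0.061 (adjusted p 0.0526).

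Among the 11 non-ATPase subunits of the cap, 2 were lower in fibrillar collagen, with a median of -0.11 and all 11 differences below 0. Psmd14, the deubiquitinase that removes ubiquitin chains from substrates, measured 10.90, 10.90 and 10.80 in fibrillar, 11.10, 11.21 and 11.06 in non-fibrillar collagen and 10.81, 10.81 and 10.83 in Matrigel. Its difference between the collagens was -0.26 ± 0.054 (1.20-fold, adjusted p 0.0423). Psmd6, a subunit of the lid, measured 10.45, 10.48 and 10.40 in fibrillar, 10.65, 10.63 and 10.69 in non-fibrillar collagen and 10.36, 10.34 and 10.39 in Matrigel. The non-fibrillar arrays of both genes were above the other 6.

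The difference between the collagens for Psmd6 was -0.21 ± 0.038 (1.16-fold, adjusted p 0.0295). The ubiquitin receptor Psmd4 had a difference of -0.11 ± 0.038 (adjusted p 0.166). The large scaffold subunits Psmd1 and Psmd2 stood at -0.02 ± 0.039 and -0.04 ± 0.040, Psmd3 at -0.03 ± 0.034 and Psmd11 at -0.01 ± 0.060, each within about its own standard error of 0. The arrays of the collagens overlapped for these 4 genes.

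The chaperones build the complex and are absent from the finished particle. Of 7 genes, 3 were lower in fibrillar collagen (Psmd5, Psmd10 and Psmg4), with a median of -0.25 and all 7 differences below 0. Psmg4, which with Psmg3 places early alpha subunits, measured 8.63, 8.48 and 8.66 in fibrillar, 8.86, 8.98 and 9.003 in non-fibrillar collagen and 8.73, 8.66 and 8.64 in Matrigel. Fibrillar and Matrigel arrays overlapped, and the non-fibrillar arrays were the highest. The difference between the collagens was -0.36 ± 0.063 (1.28-fold, adjusted p 0.0281). For Psmd5, a chaperone of the 19S base, it was -0.27 ± 0.053 (adjusted p 0.0352), and for Psmg1, which pairs with Psmg2 on the alpha ring, -0.25 ± 0.069 (adjusted p 0.0933).

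Of the 4 activators and the inhibitor, 1 gene passed. Psme2, which with Psme1 forms the interferon-inducible PA28 cap, measured 11.01, 10.99 and 11.07 in fibrillar, 11.44, 11.31 and 11.48 in non-fibrillar collagen and 11.47, 11.27 and 11.22 in Matrigel. Unlike Psma7 or Psmb6, its fibrillar arrays lay below all other arrays, and the non-fibrillar and Matrigel arrays overlapped. The fall from non-fibrillar to fibrillar collagen was 0.39 ± 0.053 (1.31-fold, adjusted p 0.0147). Its partner Psme1 had a difference of -0.21 ± 0.064 (adjusted p 0.113). Psme3, the nuclear PA28 form, stood at -0.11 ± 0.040 (adjusted p 0.174), and the inhibitor Psmf1 at -0.07 ± 0.036 (adjusted p 0.295). Psme4, the PA200 cap, was the single member whose fibrillar arrays all lay above the non-fibrillar ones (10.45, 10.52 and 10.44 against 10.37, 10.42 and 10.41), against 11.6% of all genes, and its difference of 0.07 ± 0.038 did not pass (adjusted p 0.354).

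**Figure D4:**
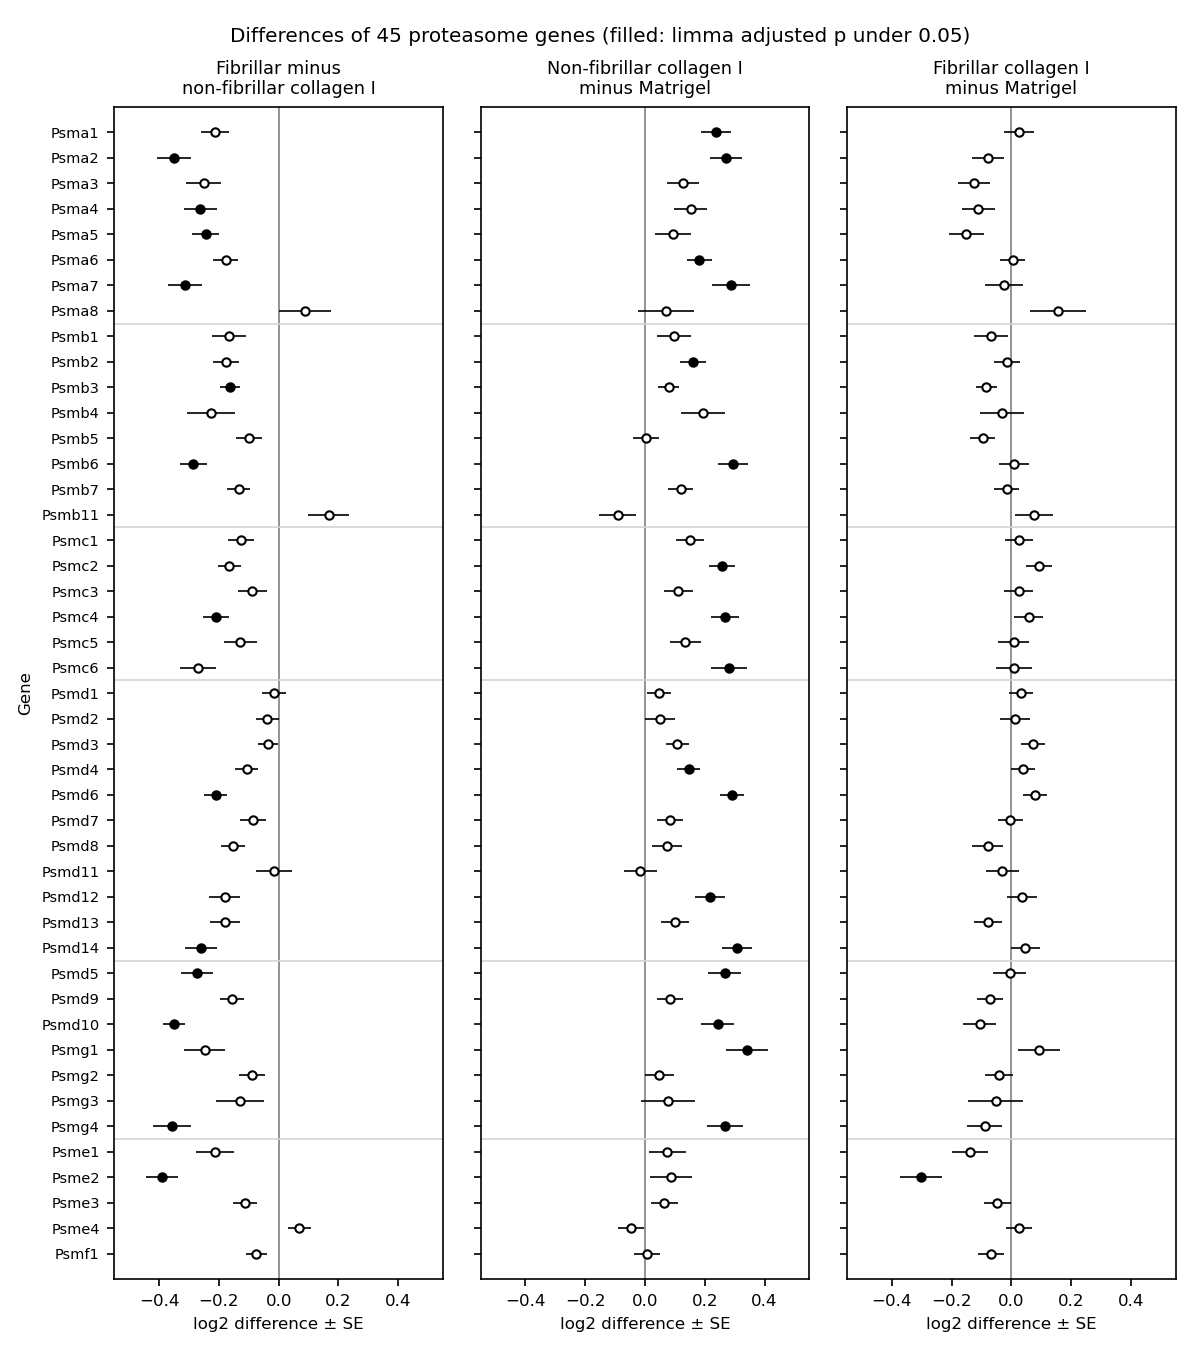
Log2 difference (points) with its standard error (bars) for each of the 45 genes in the 3 comparisons, ordered by role; filled points passed limma's adjusted p under 0.05. In the left panel 13 points are filled, all below 0; in the middle panel 17, all above 0; in the right panel 1, Psme2, below 0.

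The comparison of non-fibrillar collagen with Matrigel shares the non-fibrillar arrays with the comparison above, so the pair are not independent. In non-fibrillar collagen 17 of the 45 genes were higher than in Matrigel and 0 were lower, which is 37.8% of the members against 6.75% of all genes called higher and 7.07% called lower. Among genes with a mean log2 level of 8 or more, 14.9% were called higher and 15% lower. The median difference was 0.12 log2 units, against 0.00 over all genes. For 30 genes (66.7%) every non-fibrillar array lay above every Matrigel array, against 14.4% of all genes, and for 0 genes below, against 14%. The increases that passed ran from 1.11-fold for Psmd4 to 1.27-fold for Psmg1.

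By role, the genes higher than in Matrigel were 4 of 8 in the alpha ring, 2 of 8 in the beta ring, 3 of 6 ATPases, 4 of 11 non-ATPase cap subunits, 4 of 7 chaperones and 0 of 5 activators and inhibitor. The medians over these roles were 0.17, 0.11, 0.20, 0.10, 0.24 and 0.06 log2 units. The smallest adjusted p belonged to Psmd6, whose per-array values above give a rise of 0.29 ± 0.040 (1.22-fold, adjusted p 0.0012). Psmd14 rose by 0.31 ± 0.050 (1.24-fold, adjusted p 0.0031). Its Matrigel arrays lay close together and below every collagen array except fibrillar array 3.

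In the core, Psmb6 rose by 0.29 ± 0.050 (adjusted p 0.0042), Psma7 by 0.29 ± 0.064 (0.0148), Psma2 by 0.27 ± 0.053 (0.0082), Psma1 by 0.24 ± 0.050 (0.0115), Psma6 by 0.18 ± 0.041 (0.0167) and Psmb2 by 0.16 ± 0.044 (0.0354). Among the ATPases, Psmc2 measured 9.34, 9.29 and 9.34 in fibrillar, 9.49, 9.45 and 9.53 in non-fibrillar collagen and 9.18, 9.24 and 9.28 in Matrigel. The 3 groups of Psmc2 did not overlap, with Matrigel lowest. Psmc2 rose by 0.26 ± 0.043 (adjusted p 0.0036), Psmc4 by 0.27 ± 0.048 (0.0053) and Psmc6 by 0.28 ± 0.061 (0.0132). In the rest of the cap, the lid subunit Psmd12 rose by 0.22 ± 0.050 (0.018) and the ubiquitin receptor Psmd4 by 0.15 ± 0.039 (0.0339).

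The chaperone Psmg1 had the greatest difference from Matrigel among the members. It measured 8.23, 8.12 and 8.27 in fibrillar, 8.32, 8.53 and 8.52 in non-fibrillar collagen and 8.01, 8.13 and 8.20 in Matrigel. The non-fibrillar arrays were the highest, and array 1 of that group lay close to fibrillar array 3. Psmg1 rose by 0.34 ± 0.071 (1.27-fold, adjusted p 0.0107). Psmd5 and Psmg4 rose by 0.27 ± 0.056 and 0.27 ± 0.059 (adjusted p 0.0109 and 0.0143), and Psmd10 by 0.24 ± 0.056 (0.0174). Of the activators, Psme2 had the greatest difference, 0.09 ± 0.070 (adjusted p 0.512).

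Leaving out 1 array at a time left 10 to 15 of these 17 genes called. The counts were 11 without Matrigel array 2, 10 without Matrigel array 3 and 11 without non-fibrillar array 2. Psma1, Psma2, Psmb6, Psmc2, Psmc4, Psmd6, Psmd14, Psmd5 and Psmg1 passed in all 6 refits.

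Between fibrillar collagen and Matrigel 1 of 45 genes passed, lower in fibrillar collagen, and 0 were higher, against 2.37% of all genes called lower and 1.45% called higher (4.56% and 2.99% of genes with a mean log2 level of 8 or more). At an unadjusted p under 0.05, 6 members passed (13.3%), which is below the 18.1% of all genes. The median difference was -0.01 log2 units. Every fibrillar array lay below every Matrigel array for 6 genes and above for 3, which is 13.3% and 6.67% of the members, against 11.3% and 9.05% of all genes. The gene that passed was Psme2, which fell by 0.30 ± 0.070 (1.23-fold, adjusted p 0.0456). That call was lost in 5 of the 6 refits that left out 1 array, passed without Matrigel array 3 (adjusted p 0.0486), and was lost with only the 6 arrays compared (0.0908), after another quantile normalization (0.0641) and after centring on array medians (0.067).

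Members with more than 1 probe set gave the same sign between the collagens in each of them. For Psma3 the 3 probe sets gave -0.25, -0.25 and -0.26, and for Psma5 both gave differences from -0.25 to -0.24. Psmb3 gave -0.16 and -0.21, Psmc1 gave -0.13 and -0.19, and Psmd2 gave -0.04 and -0.07. A further probe set, annotated to both Psme2 and its near copy Psme2b, gave -0.49 between the collagens and -0.27 between fibrillar collagen and Matrigel. Psme2 and Psme2b cannot be told apart on it, and the Psme2 values above may hold signal from the copy.

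Genes that work with the proteasome were taken from lists by function. Of 16 measured proteasome-bound and shuttle factors, 2 were lower in the fibrillar than the non-fibrillar form and 4 higher in non-fibrillar collagen than in Matrigel. That is 12.5% and 25% of the list, against 3.69% and 6.75% of all genes. Among genes with a mean log2 level of 8 or more, these shares were 8.71% and 14.9%. Sem1, the small intrinsic subunit of the lid, measured 9.01, 9.13 and 9.06 in fibrillar, 9.41, 9.49 and 9.51 in non-fibrillar collagen and 9.14, 9.17 and 9.24 in Matrigel. Its 3 groups did not overlap, with a difference of -0.40 between the collagens (adjusted p 0.0107) and 0.29 against Matrigel (0.0043). Ublcp1, a phosphatase of the proteasome, differed by -0.32 between the collagens (0.0317) and 0.38 against Matrigel (0.0074). The deubiquitinase Uchl5 and the cap-bound thioredoxin Txnl1 were 0.26 and 0.25 higher than in Matrigel (0.0109 and 0.0388). The core maturation factor Pomp stood at -0.28 between the collagens (0.0671).

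The list of immunoproteasome subunits and peptide-loading genes had 11 measured. Between the collagens 2 were lower in fibrillar collagen, Psmb8 by 0.38 (adjusted p 0.0386) and Psmb10 by 0.39 (0.0429), both inducible replacements of catalytic subunits. That is 18.2% of the list, against 3.69% of all genes. Psmb10 measured 9.31, 8.99 and 9.18 in fibrillar, 9.52, 9.53 and 9.59 in non-fibrillar collagen and 9.66, 9.58 and 9.51 in Matrigel. As for Psme2, the fibrillar arrays of Psmb10 were the lowest and the other groups overlapped. Between non-fibrillar collagen and Matrigel 0 of the 11 passed (limma). At an unadjusted p under 0.05 there were 4, against 25.5% of all genes. In fibrillar collagen 3 were lower than in Matrigel: Psmb10, the peptide transporter gene Tap1 and the trimming peptidase gene Erap1. That is 27.3% of the list, against 2.37% of all genes.

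Among 8 measured regulators of proteasome transcription, 0 passed between the collagens (limma; 3 had an unadjusted p under 0.05, against 21.6% of all genes). Nfe2l1, the main activator of proteasome genes when the proteasome is inhibited, measured 10.17, 10.12 and 10.19 in fibrillar, 10.04, 9.96 and 9.98 in non-fibrillar collagen and 10.14, 10.20 and 10.18 in Matrigel. Its RNA was lowest on the 3 non-fibrillar arrays, which did not overlap the others, by 0.18 against Matrigel (adjusted p 0.0165) and 0.17 against fibrillar collagen (0.0575). Ngly1, the deglycosylase that processes the NFE2L1 protein, was lower in both collagens than in Matrigel, by 0.19 in the non-fibrillar (0.0439) and 0.24 in the fibrillar form (0.0406). The small Maf partners were split. Mafg leaned the same way as Nfe2l1 and did not pass. It was 0.21 lower in non-fibrillar collagen than in Matrigel (0.0645) and 0.14 lower than in fibrillar collagen (0.161). Mafk differed by 0.00 between non-fibrillar collagen and Matrigel. Maff went the other way from Nfe2l1. It was 0.40 higher in non-fibrillar collagen than in Matrigel (0.0124) and 0.39 higher than in fibrillar collagen (0.0514). Nfe2l2 differed by 0.00 between the collagens. Against Matrigel, non-fibrillar collagen had 12.5% of the list higher and 25% lower, against 6.75% and 7.07% of all genes. Among genes with a mean log2 level of 8 or more, these shares were 14.9% and 15%.

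**Figure D5:**
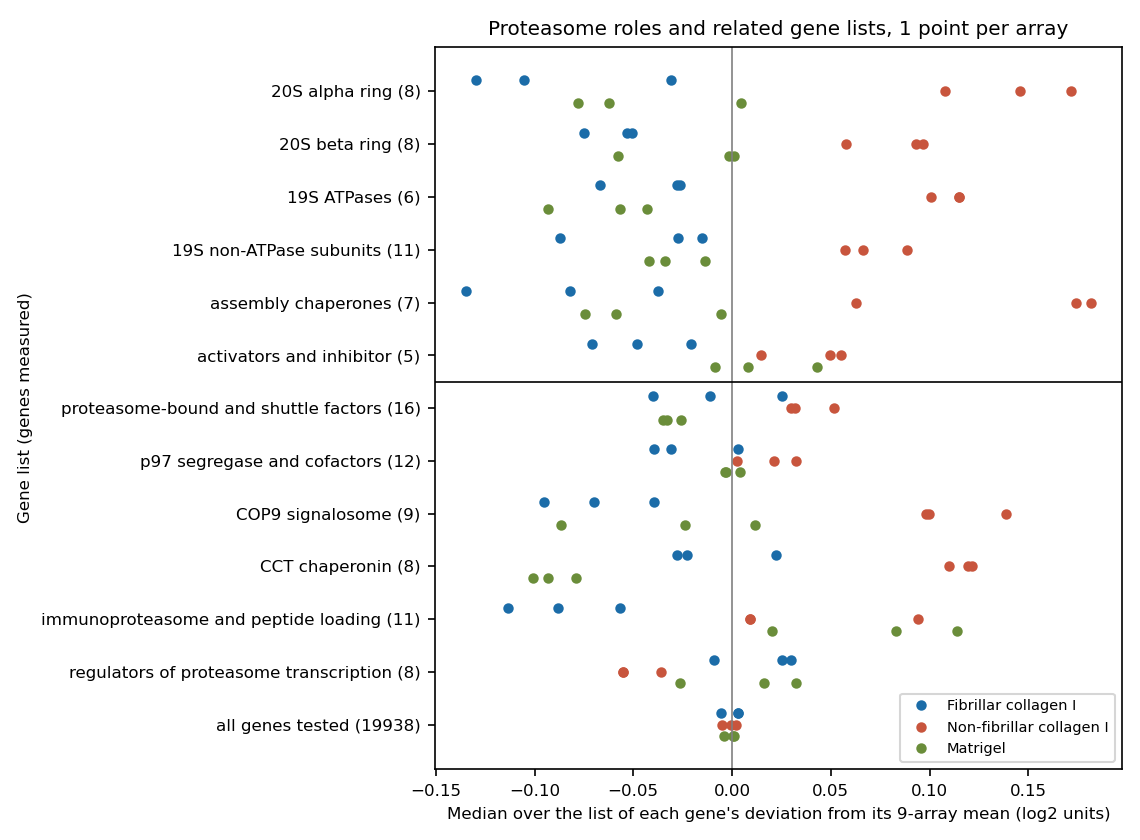
Median over each gene list of the genes' deviations from their own 9-array means (horizontal axis, log2 units), 1 point per array, for the proteasome genes by role (upper rows) and for related lists (lower rows). The non-fibrillar points lie to the right of all others in 5 of the 6 proteasome roles (not the activators and inhibitor), in the proteasome-bound and shuttle factors, in the COP9 signalosome and in the CCT chaperonin, and all genes together lie near 0.

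Complexes related in build or function were measured alongside. The COP9 signalosome, built on the same plan as the 19S lid, had 3 of 9 genes lower in the fibrillar than the non-fibrillar form. These were Cops3, Cops4 and Cops5, by 0.26, 0.22 and 0.27. In non-fibrillar collagen 3 were higher than in Matrigel (Cops3, Cops4 and Cops6). Each count is 33.3% of the list, against 3.69% of all genes called lower and 6.75% called higher. Among genes with a mean log2 level of 8 or more, these shares were 8.71% and 14.9%. The medians were -0.20 and 0.18. The CCT chaperonin, which folds actin and tubulin, had 0 of 8 that passed between the collagens (limma), with a median of -0.14. At an unadjusted p under 0.05 it had 7, against 21.6% of all genes. In non-fibrillar collagen 7 of 8 were higher than in Matrigel, with a median of 0.23. That is 87.5% of the list, against 6.75% of all genes and 14.9% of those with a mean log2 level of 8 or more. Of 12 genes of the p97 segregase, which extracts ubiquitin-tagged proteins, 0 passed between the collagens. At an unadjusted p under 0.05 there were 2, a share below the 21.6% of all genes. Nsfl1c alone was higher in non-fibrillar collagen than in Matrigel, by 0.14 (adjusted p 0.0362). That is 8.33% of the list, near the 6.75% of all genes. The ubiquitin and E1 list had 1 of 6 genes measured, Uba6, which did not pass. Whether the proteasome genes differed from these lists was not tested.

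Series-wide values frame these results. Over all 35512 probe sets, array medians lay between 5.98 and 6.05 log2 units and the correlation between arrays between 0.992 and 0.996. The epithelial markers Krt8, Krt18, Krt7 and Cdh1 were expressed, while Krt19, Epcam and Cldn4 were dim. The summed log2 level of the 7 epithelial markers was 62.9 to 63.1 in fibrillar collagen, 63.2 to 63.4 in non-fibrillar collagen and 61.2 to 61.5 in Matrigel. Between the collagens 1 of the 7 (Krt7) was lower in the fibrillar form, which is 14.3%, against 3.69% of all genes. Of 31 measured markers of macrophages, lymphocytes, endothelium, fibroblasts and adipocytes, 2 were higher (Cd68 and Pdgfra) and 1 lower (Cd14) in fibrillar than in non-fibrillar collagen. Of all genes, 2.71% were called higher and 3.69% lower in that comparison. Against Matrigel, non-fibrillar collagen had 1 of them higher and 4 lower, against 6.75% and 7.07% of all genes. Fibrillar collagen had 2 lower than Matrigel, against 2.37% of all genes. The lowest differences, non-fibrillar minus Matrigel, were -1.38 (macrophage), -1.02 (adipocyte), -1.01 (fibroblast) and -0.47 (endothelial). The highest among these other cell types was 0.28 (macrophage). Of the 7 epithelial markers, 3 were higher in non-fibrillar collagen than in Matrigel and 0 lower, with a highest difference of 1.20. That is 42.9% of them, against 6.75% of all genes. In fibrillar collagen 2 were higher than in Matrigel and 0 lower, with a highest difference of 0.90. That is 28.6%, against 1.45% of all genes. The summed macrophage markers ran from 39.0 to 39.3 on the non-fibrillar, 39.4 to 40.2 on the fibrillar and 40.3 to 40.6 on the Matrigel arrays. The summed fibroblast markers ran from 44.4 to 44.9, 45.1 to 45.6 and 45.3 to 46.1. These sums rest on few genes. Between the collagens each list had 4 genes above and 3 below 0, with a median difference of 0.03. Single differences, fibrillar minus non-fibrillar, ran from -0.37 to 0.83 for macrophage and from -0.06 to 0.67 for fibroblast markers. The part of the markers in the proteasome differences was not tested.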

How the data were processed

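RNA from D2.OR cells was hybridised to 9 Affymetrix arrays. The deposited log2 values, 1 per probe set and array, were produced by the authors through RMA in Affymetrix Power Tools, as the submitters' processing notes name them. Tool versions, settings and joint or separate RMA runs were not given in the sources used here. RMA evens out overall brightness between arrays, so differences are relative. Of 35512 probe sets, 21789 had 1 gene symbol in the platform annotation, 1621 several and 12102 none listed; the brightest single-symbol probe set stood for each of 19938 genes. Arrays do not give counts, and precision is limited by 3 arrays per group.

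Differences were fitted with limma 3.58.1 (R 4.3.3, lmFit and eBayes, two-sided, Benjamini-Hochberg over all 19938 genes, threshold 0.05). The collagen comparison used its 6 arrays; both Matrigel comparisons came from a fit of all 9. Scripts were tested on simulated data with planted differences of 0.5 and 1 log2 units. The called members' differences were smaller, 0.15 to 0.39 in size, and recovery at that size was not tested. Members and gene lists were chosen with earlier results of these data known. Named genes are members that passed, the 2 with the smallest p of a role, catalytic subunits, Psmd4, Psmd14, the activators and the inhibitor, and list genes that passed. Genes named for leading a count or for differences near 0 were chosen after their values were seen.

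Whether equal replicate numbers pair arrays was checked by correlating deviations from group means across genes. The correlations were 0.221, 0.143 and 0.242 between the collagens. They were 0.253, 0.103 and 0.097 for fibrillar collagen and Matrigel, and 0.125, 0.045 and 0.135 for non-fibrillar collagen and Matrigel. These values were all positive. Deviations cancel within each group, so arrays of unlike number covary negatively on average. What the numbers mark was not given, and whether they pair arrays was not tested further. The main fits took no pairing, and the replicate block was an alternative. Alternatives tried were the block, another normalization or centring, a filter on dim genes, other arrays in the fit, another prior, all probe sets averaged and leaving out each array.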

Additional observations from a re-analysis of the deposited data

How the results depend on the processing

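No member that passed changed direction under any alternative, and the largest adjusted p of a called gene over its alternatives was 0.145 (Psmb3, after another quantile normalization). Between the collagens, the 13 lower genes became 20 with all 9 arrays in the fit, 20 with a trended robust prior, 7 after another quantile normalization and 26 when only genes with a mean of 8 or more were tested, a setting chosen after seeing the data. Leaving out 1 array gave 1 to 3. The members' median difference was -0.13 after another quantile normalization, -0.19 after centring on array medians and -0.17 to -0.15 with 1 array left out. For fibrillar collagen against Matrigel, the count of lower genes was 0 with only the 6 arrays compared, 0 after quantile normalization, 0 after centring and 0 to 1 with 1 array left out, and the median was 0.0044 after quantile normalization. For non-fibrillar collagen against Matrigel, leaving out 1 array gave 10 to 15 higher genes, and the median was 0.16 after centring and 0.12 to 0.14 with 1 array left out. With the replicate block the counts were 13, 1 and 17, and it changed no call beyond those of Psma1, Psma3, Psma7, Psmb3, Psmc6 and Psmd6 between the collagens. Fewer arrays also leave fewer degrees of freedom; other causes were not tested.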
